A study of Mus musculus with 12 samples.

Results

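The genes described here are 39 mouse genes of the G1/S transition and of DNA replication, measured as messenger RNA in mouse embryonic fibroblasts (MEFs) with 12 whole-transcript microarrays. They were taken by symbol from a list that was chosen with earlier results of these data known. Each is read through a probe set that the platform annotation assigns to that gene alone. Where a gene had several such probe sets, which held for 3 members (Tk1, Pcna and Slbp), the brightest over the 12 arrays was kept. All 39 were measured, out of 19938 genes in the whole table, and every member value lay at 4.07 or above, over the lower quartile of each array (3.48 to 3.68). By role they are 4 origin licensing genes, 10 genes of the replicative helicase, 6 of the polymerases and primase, 8 of the sliding clamp, its loaders and strand maturation, 5 of nucleotide supply, 3 of histone supply, and 3 genes of cyclin E and E2F.

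The cells are given as MEFs from OG2 cross 129/sv, cultured in mESC medium after infection. Cells of 1 arm received SKO, read here as Sox2, Klf4 and Oct4, which can reprogram fibroblasts, although the labels leave the letters unexplained. Cells with SKO were given a blank control virus, a retrovirus carrying microRNA cluster B, or one carrying cluster C. Cells without SKO were given the same 3 viruses. Lysates were made at day 4 and day 8, counted from the first infection, after feeder cells had been removed. Each of the 12 combinations has 1 array, without replicates, and precision is limited by the number of arrays. Nothing says that the arrays came from separate cultures, so p-values measure only the spread between these arrays. Titles place all 6 arrays without SKO in a group of their own, so SKO and that group cannot be told apart. All 12 labels also carry an identical description that names a pre-iPSC line and another day, and the titles and the time label were followed instead. The MEFs are a bulk population, and fewer cycling cells and less RNA per cell cannot be told apart in any result below.

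Replication is prepared in G1, when the origin recognition complex, Cdc6 and Cdt1 load the Mcm helicase onto DNA. Cyclin D and cyclin E kinases then inactivate the retinoblastoma protein, which frees E2F factors to transcribe many of the genes named here, and in S phase Cdc45 and the GINS proteins activate the helicase ahead of the polymerases. Faster division and a shortened G1 are well known traits of cells on the way to pluripotency.

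Promoters are shown first, because binding of E2F near the start is the textbook route by which these genes are switched on together. Of the 39 members, 33 had an entry in a RefSeq promoter table (GRCm38.p6); Mcm4, Gins1, Gins2, Pole, Dscc1 and Ccne2 had none. The E2F motif was searched as TTTCCCGC, TTTCGCGC, TTTGCCGC and TTTGGCGC on both strands of the 250 bases before the start. It was found for 7 of the 33 members (21.2%), against 2.16% of 27025 genes in the table. The 7 are Orc1, Cdc6, Mcm5, Mcm6, Mcm7, Pola1 and Rfc3. Mcm6 and Mcm5 had the most matches, and of the 5 with 1 match the 2 with the largest day 8 difference with SKO, Orc1 and Mcm7, were taken as well. They are printed 5′ to 3′ on the strand of the gene, with the matches in capitals. Their windows are chr1:128359706-128359955 (minus strand) for Mcm6, chr8:75109259-75109508 (plus) for Mcm5, chr4:108579204-108579453 (plus) for Orc1 and chr5:138171884-138172133 (minus) for Mcm7. The start is that of the promoter entry. Mcm7 has 2 entries, and the one printed was taken by its count of E2F matches. By the RefSeq gene spans, the Orc1 window lies inside the gene (108575705-108616030). The windows of Mcm5 (75109468-75128439) and Mcm7 (138164583-138172111) overlap their genes.
Mcm6: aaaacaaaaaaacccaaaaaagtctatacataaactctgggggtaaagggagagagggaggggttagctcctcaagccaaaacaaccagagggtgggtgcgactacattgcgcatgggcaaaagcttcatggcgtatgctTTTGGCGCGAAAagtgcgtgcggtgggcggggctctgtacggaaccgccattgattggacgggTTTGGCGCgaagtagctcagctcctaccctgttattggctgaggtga
Mcm5: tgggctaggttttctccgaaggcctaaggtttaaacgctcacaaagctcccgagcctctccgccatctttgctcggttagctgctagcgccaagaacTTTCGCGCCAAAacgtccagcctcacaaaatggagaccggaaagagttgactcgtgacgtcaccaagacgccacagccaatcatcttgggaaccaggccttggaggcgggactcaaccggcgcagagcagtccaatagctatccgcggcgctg
Orc1: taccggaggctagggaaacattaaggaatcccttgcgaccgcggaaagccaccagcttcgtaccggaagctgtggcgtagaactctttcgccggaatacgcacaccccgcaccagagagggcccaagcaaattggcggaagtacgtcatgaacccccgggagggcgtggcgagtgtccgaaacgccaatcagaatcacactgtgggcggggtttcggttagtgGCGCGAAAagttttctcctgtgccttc
Mcm7: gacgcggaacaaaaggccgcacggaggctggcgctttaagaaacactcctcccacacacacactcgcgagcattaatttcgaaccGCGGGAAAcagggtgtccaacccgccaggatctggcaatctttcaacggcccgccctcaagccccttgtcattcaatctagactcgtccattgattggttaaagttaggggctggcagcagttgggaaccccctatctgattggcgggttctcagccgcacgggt

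Mcm6 had 3 matches, of which TTTGGCGC at 110 to 103 bases before the start and GCGCGAAA at 106 to 99 overlap on opposite strands, while another TTTGGCGC lay at 47 to 40. Mcm5 had 2 that overlap in the same way, TTTCGCGC at 153 to 146 and GCGCCAAA at 149 to 142. Orc1 had GCGCGAAA at 27 to 20, and Mcm7 had GCGGGAAA at 165 to 158. The CCAAT box (CCAAT, both strands) was found for 18 of 33 members (54.5%), against 37.5% of all genes. The cell cycle homology region, searched as TTTGAA or TTCGAA on both strands, was found for 5 of 33 (15.2%), against 19.6%. A match describes these letters in this window and is not evidence of binding.

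Marker lists were read on each array as a check of the labelled cells. The 10 fibroblast markers had a mean log2 level of 10.01 to 10.52 on the arrays without SKO and 9.00 to 9.26 with SKO. None of them lay below an array's lower quartile. Not all followed the mean. Thy1 overlapped between the arms (8.48 to 8.71 with SKO, 8.25 to 8.88 without). Dcn was higher with SKO at day 4 (9.36 to 9.58 against 8.97 to 9.05) and lower at day 8. The 10 smooth muscle markers averaged 7.36 to 7.58 without SKO and 6.10 to 6.52 with SKO. The 10 epithelial markers averaged 4.56 to 4.78 without SKO, 5.05 to 5.24 with SKO at day 4 and 5.94 to 6.77 with SKO at day 8. The 10 pluripotent cell markers averaged 4.39 to 4.63 without SKO, 4.30 to 4.58 with SKO at day 4 and 5.12 to 6.82 with SKO at day 8. Macrophage and leukocyte markers averaged 4.85 to 5.03 with SKO, and 4.74 to 5.03 at day 4 and 5.22 to 5.37 at day 8 without it. Among them Itgam (4.80 to 6.13 against 3.95 to 4.69) and Laptm5 (6.35 to 7.50 against 5.06 to 5.79) were higher with SKO. Endothelial markers averaged 4.45 to 4.78 with SKO and 4.20 to 4.43 without. Of each 10, 0 to 4 pluripotent cell markers, 0 to 3 epithelial, 0 to 3 macrophage and leukocyte, and 1 to 4 endothelial markers lay below the lower quartile of an array. The mean level of each list thus moved with SKO or day, though not every marker in it did, and the endothelial mean moved largely through Tek. The part of these lists in the results was not tested.

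At day 4 the replication genes were higher in cells with SKO. All 39 had a fitted log2 difference above 0, with a median of 0.66 (1.58-fold), against a median of -0.04 over all genes. Of the 39, 30 rose, meaning a Benjamini-Hochberg adjusted p under 0.05 in a limma fit over all genes, and none fell, where 9.52% of all genes were called higher and 9.4% lower. For 35 members the 3 arrays with SKO all lay above the 3 without it (89.7%), against 15.8% of all genes. The largest rises were in Rrm2 (1.44 ± 0.09, SE, 3 arrays against 3), Mcm6 (1.04 ± 0.12), Pola1 (0.99 ± 0.13), Pcna (0.99 ± 0.12) and Tk1 (0.98 ± 0.11). Within each virus the median was 0.49 with blank virus, 0.90 with cluster B and 0.58 with cluster C. The count depended on single arrays: it was 14 without SKO and cluster B, 16 without cluster B alone, 18 without SKO and blank virus, and 19 without cluster C alone, all at day 4, while the median stayed between 0.52 and 0.81.

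**Figure D1:**
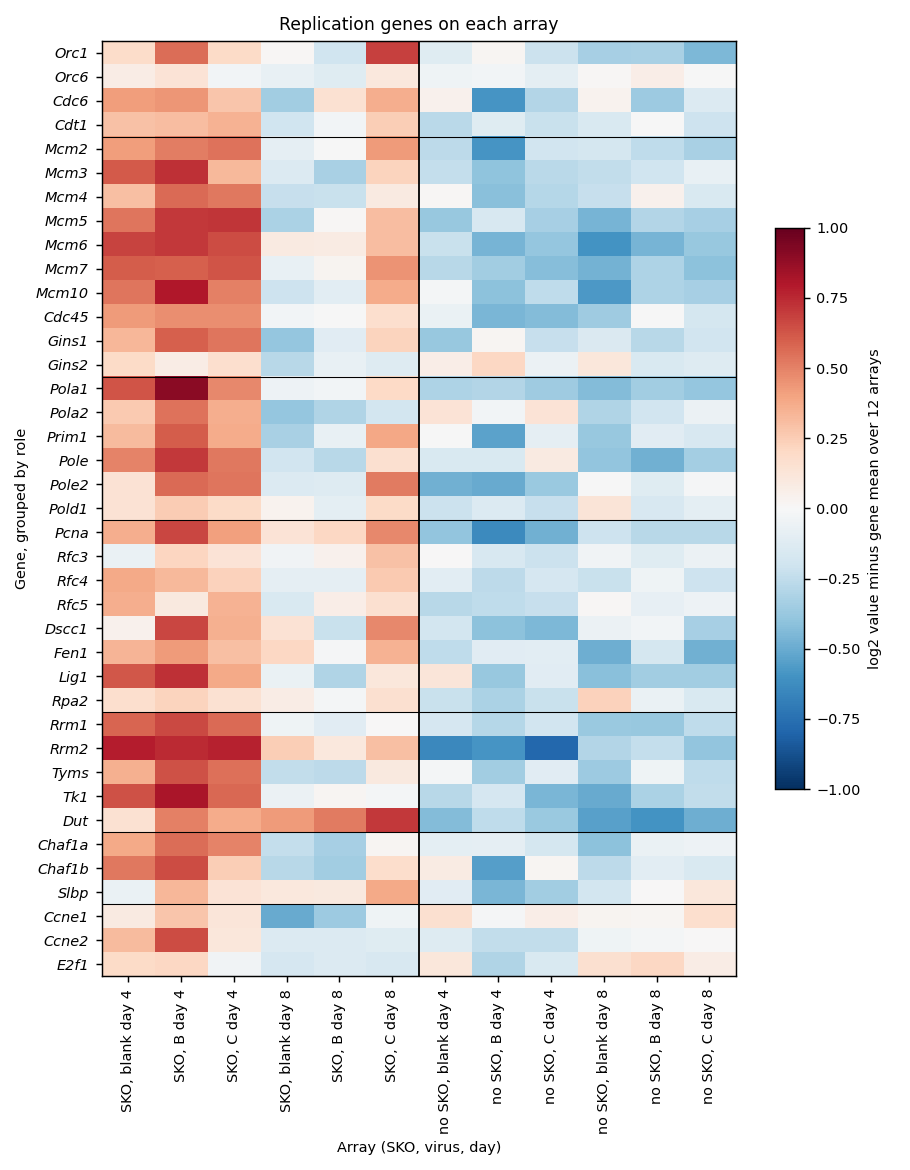
Each row is 1 of the 39 genes, grouped by role, and each column 1 array; colour gives the log2 value minus that gene's mean over the 12 arrays. The 3 arrays with SKO at day 4 are mostly red (median over the genes 0.36 to 0.56), and at day 8 that with SKO and cluster C (0.22) is redder than those with blank virus and cluster B (both -0.09).

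Among licensing genes, 2 of 4 rose at day 4, Cdc6 (0.66) and Cdt1 (0.52). Orc1, the largest subunit of the origin recognition complex, missed the threshold (0.42 ± 0.19, adjusted p = 0.187), and so did Orc6 (0.12). In the order blank virus, cluster B and cluster C, which is kept below, Orc1 read log2 levels of 4.70, 5.08 and 4.72 with SKO at day 4 and 4.54, 4.32 and 5.21 at day 8. Without SKO it read 4.40, 4.54 and 4.31 at day 4 and 4.19, 4.20 and 4.07 at day 8. Its highest value of all was thus with cluster C and SKO at day 8, while every array with SKO lay above those of the same day without it.

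Of the 10 helicase genes, 9 rose at day 4, with a median of 0.84. They are Mcm2, Mcm3, Mcm4, Mcm5, Mcm6 and Mcm7, which form the helicase ring, Mcm10 and Cdc45, which help to fire it, and the GINS subunit gene Gins1. Mcm6 read 9.00, 9.03 and 8.97 with SKO at day 4 and 8.41, 8.41 and 8.63 at day 8, against 8.10, 7.85 and 7.94 and then 7.73, 7.86 and 7.94 without SKO. The 2 arms did not overlap on either day, and the 3 viruses were close to each other at day 4. Gins2, another GINS subunit gene, read 6.69, 6.57 and 6.67 with SKO at day 4 and 6.22, 6.42 and 6.37 at day 8. Without SKO it read 6.57, 6.70 and 6.44 at day 4 and 6.61, 6.35 and 6.37 at day 8. Its arms overlapped on both days, and its difference at day 4 was the smallest of the 39 (0.07 ± 0.12, adjusted p = 0.727).

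Of the 6 polymerase and primase genes, 5 rose at day 4. Pola1, the catalytic subunit of DNA polymerase alpha, read 7.17, 7.44 and 7.02 with SKO at day 4 and 6.49, 6.51 and 6.74 at day 8. Without SKO it stayed between 6.10 and 6.24 on all 6 arrays. Pola2, the accessory subunit of the same enzyme, read 6.51, 6.78 and 6.61 with SKO at day 4 and 5.86, 5.95 and 6.06 at day 8, against 6.38, 6.22 and 6.38 and then 5.95, 6.05 and 6.19 without SKO. Its difference at day 4 was 0.31 ± 0.11 (adjusted p = 0.0824), although the arrays did not overlap. The others were the primase gene Prim1 (0.64), the polymerase epsilon genes Pole (0.65) and Pole2 (0.87), and the polymerase delta gene Pold1 (0.39, adjusted p = 0.0448), which kept its call under 7 of 17 alternatives.

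Of the 8 clamp and strand maturation genes, 7 rose at day 4 and Rfc3, a clamp loader subunit gene, did not pass (0.22). Pcna, the sliding clamp that tethers polymerases to DNA, read 9.60, 9.90 and 9.64 with SKO at day 4 and 9.37, 9.44 and 9.72 at day 8. Without SKO it read 8.84, 8.59 and 8.75 and then 9.03, 8.95 and 8.95, so that the arms did not overlap on either day. Fen1, the flap nuclease of lagging strand maturation, read 6.46, 6.54 and 6.42 with SKO at day 4 and 6.32, 6.10 and 6.46 at day 8. Without SKO it read 5.86, 6.003 and 6.01 and then 5.63, 5.94 and 5.64. Its difference was alike on the 2 days, 0.51 ± 0.12 and 0.56 ± 0.12. Rfc5, another loader subunit gene, read 7.99, 7.73 and 7.97 with SKO at day 4 and 7.48, 7.70 and 7.79 at day 8, against 7.36, 7.38 and 7.40 and then 7.64, 7.55 and 7.58 without SKO. Its arms were apart at day 4 and overlapped at day 8. Rfc4 (0.49), Dscc1 (0.70), the ligase gene Lig1 (0.70) and Rpa2, a subunit of the single-strand binding protein (0.43), rose at day 4 as well.

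All 5 nucleotide supply genes rose at day 4, with a median of 0.82. Rrm2, the small subunit of ribonucleotide reductase and the limiting part of that enzyme in S phase, read 9.55, 9.51 and 9.54 with SKO at day 4 and 8.12, 8.18 and 7.98 without it. At day 8 it read 9.01, 8.87 and 9.06 with SKO and 8.47, 8.53 and 8.37 without. Its difference at day 4 had the smallest adjusted p of the members (1.60e-05), and the arms did not overlap on either day. Dut, which clears dUTP so that uracil is kept out of DNA, read 6.90, 7.25 and 7.12 with SKO at day 4 and 7.18, 7.27 and 7.46 at day 8, against 6.32, 6.50 and 6.37 and then 6.20, 6.15 and 6.26 without. Tyms, the thymidylate synthase, read 7.53, 7.81 and 7.73 with SKO at day 4 and 6.93, 6.91 and 7.27 at day 8, against 7.15, 6.82 and 7.06 and then 6.81, 7.13 and 6.92 without. Dut stayed apart between the arms at day 8 and Tyms overlapped. Rrm1 (0.82) and the salvage kinase Tk1 made up the rest.

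Of the 3 histone supply genes, Chaf1a, a subunit of the chromatin assembly factor, rose at day 4 (0.60). Its partner Chaf1b (0.63 ± 0.20, adjusted p = 0.0585) and the histone messenger binding protein Slbp (0.44 ± 0.14, adjusted p = 0.0637) missed the threshold. Slbp read 7.81, 8.21 and 8.02 with SKO at day 4 and 7.99, 7.98 and 8.26 at day 8, against 7.77, 7.43 and 7.53 and then 7.70, 7.88 and 8.00 without. The day 4 arrays were just apart and the day 8 arrays overlapped.

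The cyclin E and E2F genes, which act upstream of the others, had the lowest median of the roles at day 4 (0.24), and 1 of 3 rose. Ccne2 read 5.66, 6.0003 and 5.46 with SKO at day 4 and 5.22, 5.10 and 5.10 without (0.57 ± 0.12, adjusted p = 0.0112). At day 8 it read 5.21, 5.21 and 5.23 with SKO and 5.30, 5.32 and 5.36 without. Ccne1, the other cyclin E, read 7.44, 7.63 and 7.47 with SKO at day 4 and 7.52, 7.34 and 7.42 without (0.09 ± 0.12). At day 8 it read 6.85, 6.99 and 7.31 with SKO and 7.38, 7.38 and 7.52 without. E2f1, the transcription factor, read 6.33, 6.34 and 6.10 with SKO at day 4 and 6.25, 5.84 and 5.98 without (0.24 ± 0.12, adjusted p = 0.216). At day 8 it read 5.97, 5.996 and 5.97 with SKO and 6.30, 6.35 and 6.21 without. In each of these 3 genes, and in no other member, all arrays with SKO lay below all without SKO at day 8. That is 7.69% of the members, a smaller share than the 24.2% of all genes.

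At day 8 the difference between the arms was smaller, with a median of 0.21 over the members and -0.07 over all genes. Of the 39, 31 lay above 0, 8 rose and 1 fell, where 13.4% of all genes were called higher and 12.7% lower. The share of members called higher was thus much closer to that of all genes than at day 4. For 15 members the arrays with SKO all lay above those without it (38.5%), against 20.7% of all genes. The largest was Dut (1.09 ± 0.11, adjusted p = 9.32e-05), followed by Mcm6 (0.64), Fen1 (0.56), Orc1 (0.54 ± 0.19), which missed the threshold (adjusted p = 0.0735), and Pcna (0.53). Mcm7 (0.53), Rrm2 (0.53 ± 0.09), Pola1 (0.43) and Mcm5 (0.37) also rose. Ccne1 fell (-0.38 ± 0.12, adjusted p = 0.0493), with E2f1 (-0.31), Ccne2 (-0.11), Pola2 (-0.11) and Gins2 (-0.11) next on the lower side and short of the threshold. Dut, Mcm6 and Rrm2 kept their calls under all 17 alternatives, while Ccne1 kept its call under 7 and Mcm5 under 5. The count of 9 became 4 without any 1 of SKO and blank virus, SKO and cluster C, or blank virus alone, and 5 without cluster C alone, all at day 8. It became 14 by robust empirical Bayes with a mean-variance trend and 15 when the fit kept genes above the median level. Leaving out SKO and cluster C at day 8 gave a median of 0.04.

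**Figure D2:**
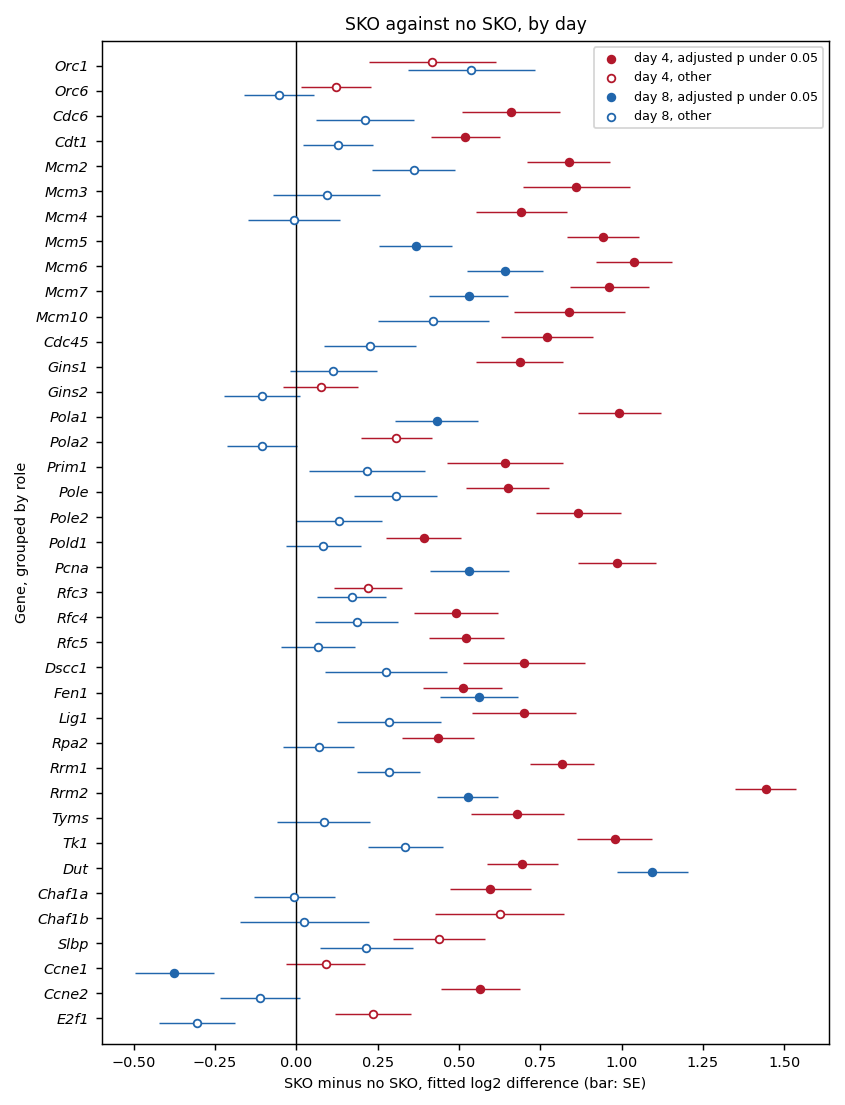
Fitted log2 differences between cells with and without SKO are drawn for each gene at day 4 (red) and day 8 (blue), with bars of 1 SE; filled points have an adjusted p under 0.05. Most red points lie to the right of the blue ones, Dut, Orc1 and Fen1 do not, and the blue points of Ccne1, Ccne2 and E2f1 lie below 0.

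Within the arm with SKO the members fell from day 4 to day 8. Of the 39, 36 lay below 0 with a median of -0.43, against -0.01 over all genes, and 17 fell and none rose, where 3.66% of all genes were called lower and 5.24% higher. For 23 members all day 8 arrays lay below all day 4 arrays (59.0%), against 14.0% of all genes. The lowest were Tk1 (-0.70 ± 0.11, adjusted p = 0.00694), Pola2 (-0.68), Pole (-0.68), Lig1 (-0.66) and Chaf1a (-0.66), and Rrm1 (-0.65 ± 0.10) kept its call under all 18 alternatives. Tyms (-0.65), Mcm5 (-0.65), Mcm3 (-0.64), Pola1 (-0.63), Mcm4 (-0.58), Gins1 (-0.58), Rrm2 (-0.55), Mcm6 (-0.52), Ccne2 (-0.49), Mcm7 (-0.48) and Ccne1 (-0.47) completed the 17. Dut (0.21), Slbp (0.06) and Rfc3 (0.0024) were above 0 and missed the threshold. By role, 6 of 10 helicase genes, 3 of 6 polymerase genes, 4 of 5 nucleotide supply genes, 2 of 3 cyclin E and E2F genes, 1 of 8 clamp genes, 1 of 3 histone supply genes and no licensing gene fell. This comparison and those of SKO at each day share arrays, so their values are not separate evidence.

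The fall was smaller on the arrays with cluster C. Between single arrays the median change was -0.53 with blank virus, -0.64 with cluster B and -0.14 with cluster C, where 12 of 39 members lay above 0 and Orc1 was highest (0.49). With 1 array on each side these differences have no replicate check. The count of 17 became 2 when either SKO and blank virus array was left out, 1 for either SKO and cluster B array, and 10 for either array of cluster C alone, while the median lay between -0.59 and -0.37.

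Without SKO the members as a list did not move in 1 direction. The median change from day 4 to day 8 was -0.0006, with 19 of 39 above 0, against 0.01 over all genes. Rrm2 rose (0.36 ± 0.09, adjusted p = 0.0469), where 4.05% of all genes were called higher, and this call was lost without any 1 of the 12 arrays. Pole2 (0.41 ± 0.13, adjusted p = 0.0934) was highest, followed after Rrm2 by Slbp (0.28), E2f1 (0.26) and Rpa2 (0.26). Pole (-0.33), Orc1 (-0.27), Pola2 (-0.26), Lig1 (-0.25) and Fen1 (-0.23) were lowest, and none of them passed.

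The change over time was compared between the arms directly. The change of Rrm2 was lower with SKO than without (-0.92 ± 0.13, limma adjusted p = 0.00977), falling in each of 3 viruses with SKO and rising in each of 3 without, and kept that call under all 17 alternatives. It was the only member called, where 1.0% of all genes were called lower. In all, 36 of 39 members lay below 0 with a median of -0.45, against -0.02 over all genes. By limma 24 had an unadjusted p under 0.05, and the share of all genes at that level is not given here. The next lowest were Mcm3 (-0.77), Pole2 (-0.74), Mcm4 (-0.70) and Ccne2 (-0.68, adjusted p = 0.0778). Dut (0.40), Orc1 (0.12) and Fen1 (0.05) lay above 0. Robust empirical Bayes with a mean-variance trend called 11 members here and a restriction to brighter genes called 10. The share of all genes called under these fits was not computed.

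**Figure D3:**
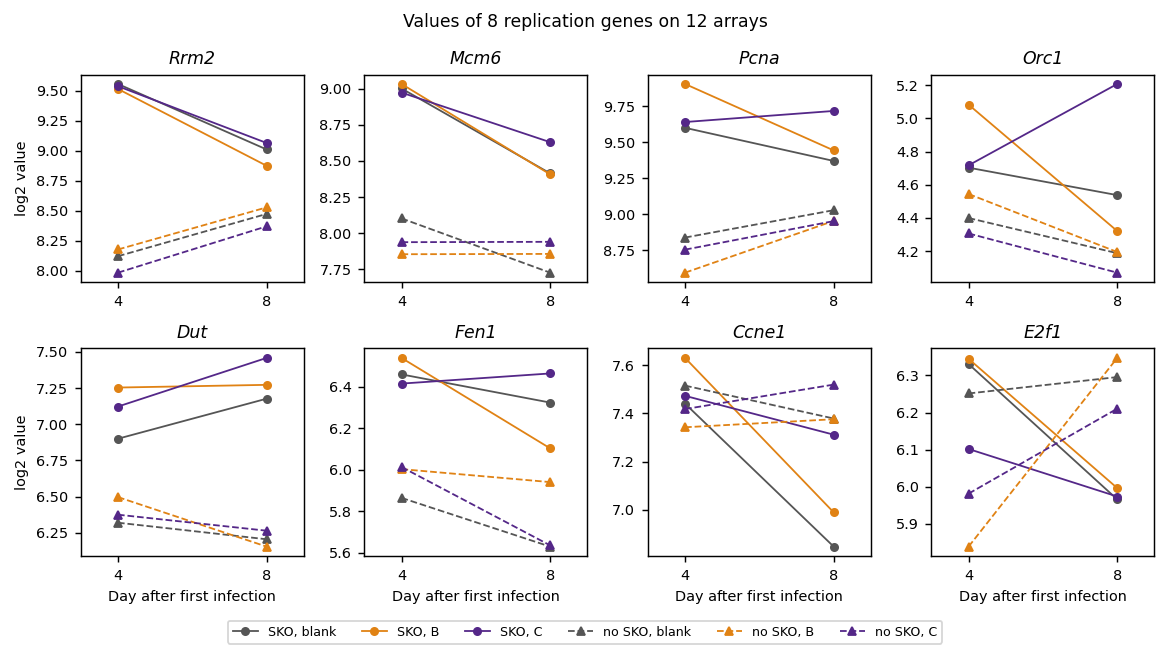
Log2 levels of 8 members on the 12 arrays by day, with solid lines and circles for cells with SKO and dashed lines and triangles for cells without; each panel has its own scale. Rrm2 falls with SKO (9.51 to 9.55 at day 4, 8.87 to 9.06 at day 8) and rises without it, while Ccne1 and E2f1 are lower with SKO than without at day 8.

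The microRNA clusters were then set against blank virus. With SKO and cluster C, 35 of 39 members lay above 0 with a median of 0.19 (-0.01 over all genes). None passed in limma, where 0.0201% of all genes were called in either direction. An unadjusted p under 0.05 was found for 3, and the share of all genes at that level is not given here. The highest were Pole2 (0.52 ± 0.16, adjusted p = 0.663), Gins1 (0.41 ± 0.16), Mcm5 (0.40 ± 0.14), Prim1 (0.38) and Orc1 (0.34), and the lowest E2f1 (-0.11), Ccne2 (-0.09), Lig1 (-0.04) and Tk1 (-0.01). The other probe set of Tk1 read 0.40 ± 0.18 here (adjusted p = 0.733 over all probe sets), so the place of Tk1 depends on the probe set. The 2 days differed. Between single arrays the median was 0.02 at day 4, with 21 of 39 above 0, and 0.32 at day 8, with 39 of 39 above 0, from E2f1 (0.01) to Cdc6 (0.71). The fitted median was -0.01 when the day 8 array of cluster C with SKO was left out, and 0.37 without its day 4 array. The day 8 array also had the highest pluripotent and epithelial marker means of the 12 (6.82 and 6.77), whose part in this difference was not tested.

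With SKO and cluster B the median was 0.09 and 31 of 39 lay above 0. None passed in limma, with 0 at an unadjusted p under 0.05, where 0.01% of all genes were called. Prim1 (0.27 ± 0.22), Gins1 (0.27), Cdc6 (0.27), Mcm5 (0.25) and Dut (0.22) were highest, and Rrm2 (-0.09), Fen1 (-0.07), Lig1 (-0.06), Mcm3 (-0.03) and Rfc4 (-0.03) lowest. The median was 0.17 at day 4 (34 of 39 above 0) and 0.01 at day 8 (22 of 39), and it was -0.05 when the day 4 array of cluster B with SKO was left out. The order of the clusters therefore differed by day, with a median of cluster C minus cluster B of -0.12 at day 4 and 0.29 at day 8. The fitted median of cluster C minus cluster B was 0.08, and limma called no member, with 0 at an unadjusted p under 0.05, where 0.0201% of all genes were called.

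Without SKO the medians against blank virus were -0.0012 for cluster C, with 18 of 39 above 0, and -0.06 for cluster B, with 13 of 39 above 0. Between the clusters the median was 0.0030. No member passed in these 3 limma comparisons, nor did any gene of the table (0.0%), with 0, 1 and 0 at an unadjusted p under 0.05. The difference of the cluster effect between the arms had a median of 0.21 for cluster C (34 of 39 above 0) and 0.13 for cluster B (31 of 39), and limma called no member and no other gene in either (0.0%), with 0 and 1 at an unadjusted p under 0.05.

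**Figure D4:**
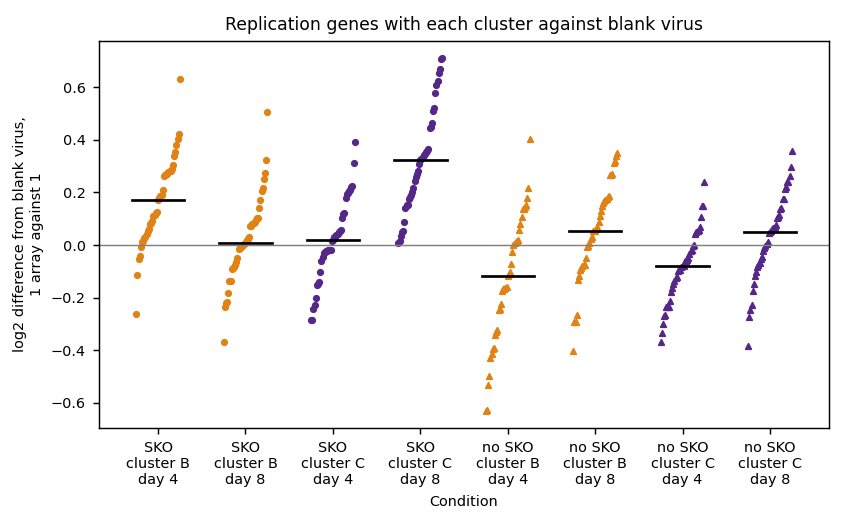
Each point is the log2 difference of 1 member between 1 array of a cluster and the blank virus array of the same arm and day, with the median of the 39 members as a black bar. With SKO and cluster C the points straddle 0 at day 4 (median 0.02) and all lie above it at day 8 (median 0.32).

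Most members varied together over the 12 arrays, and less so within the arm without SKO. Pearson's r of a member with the mean of the other 38, given as a description since all share the same arrays, had a median of 0.88, and 28 members were above 0.8. Over the 12 arrays Ccne1 (0.28), Gins2 (0.29), E2f1 (0.29) and Orc6 (0.60) were least like the rest. The median was 0.93 over the 6 arrays with SKO, where 30 members were above 0.8, and 0.43 over the 6 without, where 2 were. Within the arm with SKO those genes followed the rest more closely (Ccne1 0.99, Orc6 0.81, E2f1 0.79, Gins2 0.78). Dut (-0.23), Slbp (0.24) and Rfc3 (0.44) were lowest there. Values of r over 12 arrays include the difference between the arms, and none were computed for all genes.

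Of 86 other genes of the G1/S pathway, 43 rose with SKO at day 4 and 2 fell, with a median of 0.42, and at day 8 25 rose and 5 fell, with a median of 0.19. Over all genes 9.52% were called higher and 9.4% lower at day 4, and 13.4% and 12.7% at day 8. The largest by far was Rb1, the retinoblastoma gene that holds E2F back, at 7.92 to 8.70 on the 6 arrays with SKO and 5.18 to 6.43 without (2.37 ± 0.17 at day 4 and 2.41 ± 0.17 at day 8). Usp1, a deubiquitinase of DNA repair (1.74), and the cyclin D gene Ccnd1 (1.51) came next at day 4, and the cyclin D kinase gene Cdk6 (1.31) and Usp1 (1.18) at day 8. Of the other D cyclins, Ccnd2 rose at day 4 (0.36 ± 0.10, adjusted p = 0.0292) and was at 0.27 at day 8, and Ccnd3 was at 0.23 and -0.10. The kinase inhibitors were mixed: Cdkn1c fell at both days (-0.94 and -0.82, each ± 0.10), Cdkn2b too (-0.66 and -0.56), and Cdkn2a (-0.40 and -0.34) and Cdkn1b (-0.15 and 0.18) did not pass. Cdkn2c rose at day 4 (0.53) and Cdkn2d at day 8 (0.49). Cdk4, whose product pairs with cyclin D as that of Cdk6 does, fell at day 8 (-0.47). Cdkn1a was not analysed here.

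From day 4 to day 8 with SKO, 19 of the 86 fell and 2 rose, where 3.66% of all genes were called lower and 5.24% higher. The histone chaperone gene Asf1b (-0.95), the checkpoint gene Clspn (-0.95) and the origin firing gene Ticrr (-0.74) were lowest among those that passed, Ccnd1 fell (-0.42), and Cdkn1c (0.78 ± 0.10) and the polymerase delta subunit gene Pold4 (0.64) rose. Without SKO Pold4 (0.68) and Cdkn1c (0.66) rose too, and E2f4 (-0.45) and Cdc7 (-0.44), which encodes a kinase that fires origins, fell. Of the remaining genes named above, Cdkn1b (0.41), Cdkn2a (0.24), Cdkn2b (0.15), Ccnd2 (-0.32) and Ccnd3 (0.03) did not pass with SKO.

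A list of 24 G2/M genes, which act after replication, was set beside the members. With SKO at day 4, 17 of 24 were called higher with a median of 0.60, among them Nusap1 (1.15), a spindle protein gene, the proliferation marker gene Mki67 (1.11) and Ect2 (1.10), which acts in cytokinesis. At day 8 10 were called higher with a median of 0.34. Over all genes 9.52% were called higher at day 4 and 13.4% at day 8. From day 4 to day 8, 17 fell with SKO (median -0.72, lowest the kinetochore motor gene Cenpe at -1.04), where 3.66% of all genes did. Without SKO 11 fell (median -0.55), among them Kif20a (-0.76) and Kif2c (-0.74), where none of the 39 members fell (median -0.0006) and 4.63% of all genes did. The difference between the lists was not tested.

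**Figure D5:**
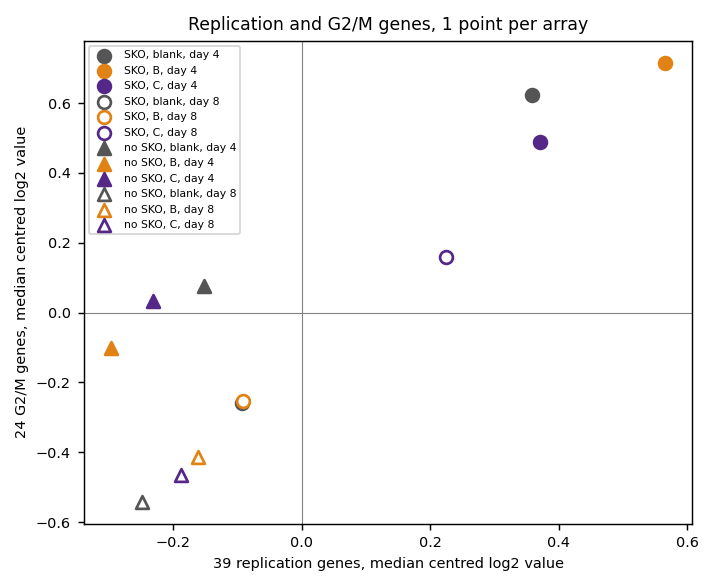
Each point is 1 array, with the median of the 39 replication genes on the horizontal axis and of the 24 G2/M genes on the vertical axis, both as log2 values minus each gene's mean over 12 arrays. Arrays without SKO lie between -0.30 and -0.15 on the horizontal axis on both days and move down from day 4 (filled) to day 8 (open), and the open circle of SKO and cluster C (0.22) lies to the right of the other open circles.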

How the data were processed

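The authors deposited log2 values of 28853 probe sets on 12 arrays. The submitters' processing notes name RMA and Partek but no version or role, and RMA pulls arrays to a common distribution. A genome build is not given in the sources used here. Values ran from 0.916 to 14.034, with array medians of 4.98 to 5.07. By the platform annotation 21789 probe sets had 1 gene, 1621 several and 5443 none. Entrez identifiers of 21698 matched RefSeq and 0 symbols changed. Levels are not comparable between probe sets.

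Groups came from titles and time labels. Using limma 3.58.1 in R 4.3.3, 1 fit of 8 coefficients (SKO, day, cluster, SKO by day, SKO by cluster) over 12 arrays left 4 residual degrees of freedom, with 4.94 prior ones. The spread (median SD 0.152) is how far cluster effects differ between days. In all 13 comparisons were adjusted by Benjamini-Hochberg over 19938 genes, at 0.05. The fit was tested on simulated data. Alternatives were each arm alone, robust empirical Bayes with a mean-variance trend, equal medians, quantile normalization, genes above the median level, the mean over probe sets, and leaving out each array.

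Members, lists and named genes were chosen with earlier results of these data known. Array values are given for the largest and smallest day 8 difference with SKO in roles of 5 or more members, the largest in others, Pcna, Ccne1, Ccne2 and E2f1, and, chosen after its values were seen, Rrm2. The rule for named genes covers all 39 members by role and, per comparison, up to 5 members and 3 pathway genes a side, with the D cyclins and 5 kinase inhibitors. Cdkn2c and Cdkn2d, outside it, were chosen after their values were seen.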

Additional observations from a re-analysis of the deposited data

Results flagged for a closer look

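The change from day 4 to day 8 differed between the arms, by limma's test of the difference itself, for 1 of 39 members and 3 of 86 other genes of the pathway. Over all genes 2.97% were called in either direction and 1.0% lower, so the count alone does not set the pathway apart. Rrm2, of ribonucleotide reductase, had a difference of -0.92 ± 0.13 log2 units (SE, adjusted p = 0.00977), with a fall in 3 of 3 viruses with SKO. Asf1b, a histone chaperone gene, had -0.89 ± 0.15 (adjusted p = 0.0174), from 8.28 to 8.50 at day 4 and 7.39 to 7.48 at day 8 with SKO, and 7.33 to 7.66 without. Clspn, a checkpoint gene, had -0.98 ± 0.21 (adjusted p = 0.0459), falling by 0.95 with SKO and at 0.04 without. Donson, a replication fork gene, had -0.73 ± 0.16 (adjusted p = 0.0486), with -0.45 with SKO and 0.28 without, of which the latter did not pass (adjusted p = 0.168).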

How the results depend on the processing

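Each combination has 1 array and the labels carry no replicate numbers, so no replicates could be paired. The fit matched the days by virus within each arm. Arrays with and without SKO were matched by virus and day only in the medians within each virus, with no test. Scaling to equal medians or by quantiles moved the median of all genes by less than 0.1 in each comparison. Leaving out 1 array in turn gave 14 to 31 called members for SKO at day 4 (main 30), 4 to 10 at day 8 (main 9), 1 to 16 for day 8 against day 4 with SKO (main 17), 0 without SKO (main 1) and 1 to 2 for the difference between them (main 1). Robust empirical Bayes with a mean-variance trend called 14 members for SKO at day 8 and 11 for the difference in day change, and genes above the median level alone gave 15 and 10, and 2 for day 8 against day 4 without SKO, where each arm alone and equal medians gave 0. Shares of all genes called were not computed under the alternative fits. Left-out arrays moved the member median from -0.0473 to 0.28 for cluster B with SKO (main 0.09), from -0.0365 to 0.11 for cluster C against cluster B without SKO (main 0.0030) and from -0.0086 to 0.32 for the difference of the cluster B effect between the arms (main 0.13). No member passed for any cluster under these alternatives. A window of 300 bases, chosen after seeing the data, raised the members with an E2F match from 7 to 12 (36.4%), against 2.6% of all genes. The cause of these changes was not tested. Members lay over the lower quartile of every array, which is not a measure of background, and how far signal limits them was not tested.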

Other observations

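Other S-phase chromatin and repair genes had the highest median of the pathway groups with SKO at day 4. Of 13, 9 were called higher with a median of 0.88, against 10 of 18 other origin and helicase genes (0.51), 8 of 20 other polymerase, clamp and maturation genes (0.32) and 4 of 8 other nucleotide supply genes (0.39). Over all genes 9.52% were called higher. Counts of the G1 cyclin, kinase inhibitor and E2F groups are not listed here. Brca1, of homologous recombination, lay at 6.10 to 6.77 on the 6 arrays with SKO and 5.18 to 5.54 on the 6 without, with differences of 1.23 at day 4 and 1.03 at day 8. It was named after its values were seen.

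The 3 members with a second probe set gave these values there for SKO at day 4. Pcna was at 1.01 against 0.99 on the set kept, Tk1 at 0.63 (limma adjusted p = 0.0170) against 0.98, and Slbp at 0.38 (adjusted p = 0.0279), which passed, against 0.44 (adjusted p = 0.0652 over all probe sets), which did not. For the day change with SKO minus without, Tk1 was at -0.32 on the second set and -0.64 on the set kept, and neither passed. From day 4 to day 8 the 2 sets of Tk1 were close with SKO (-0.69 and -0.70). They differed without it (-0.37 on the second set and -0.05 on the set kept, neither passing). Which set reads the gene more closely was not tested.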
